A study of Mus musculus with 26 samples.

Results

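Germ cells of the mouse fetal ovary were examined at stage E14.5 (days after mating), when meiosis is under way in some of them. The cells came from female fetuses that carried the reporters Blimp1-mVenus and Stella-ECFP (BVSC), transgenes that mark germ cells by fluorescence under control of the genes Prdm1 and Dppa3. A cell was taken when its name gave the stage E14.5 and the sort gate BVSC, and when Anxa5, a gene of ovarian somatic cells, was below 100 counts per 1000000 UMIs (CPM). Of the 283 BVSC cells of the stage, 275 were kept and 8 were left out. They stand among 465 cells of all sort gates at E14.5 and 1881 cells in the series. The 275 cells belong to 4 libraries, with 31 cells in library 4, 60 in library 5, 93 in library 12 and 91 in library 14. The germ cells of E13.5, chosen in the same way, number 147 (58 in library 3 and 89 in library 10), and those of E15.5 number 151 (90 in library 16 and 61 in library 18).

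All groups share the BVSC transgenic strain, the female sex, the trypsin treatment and the marks WT and 2N in the cell names, and the labels name no other agent. The labels state that gonads of several embryos were combined at each stage, without saying whether libraries came from separate animals, so that the tests here set differences against library-to-library spread, which may come from handling alone. Libraries 4 and 5 hold cells with different letters in their names (D in library 4, C and P in library 5) of the replicate named R1 in the first series of library titles, and may not be independent of each other. Single cells were picked by mouth pipette, and 3' ends of polyadenylated RNA were counted by unique molecular identifiers (UMIs).

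Female germ cells leave the mitotic cycle, replicate their DNA a last time and enter the first meiotic prophase, in which homologous chromosomes pair. Retinoic acid and BMP signals act on the germ cell, STRA8 and its partner MEIOSIN switch on meiotic genes, and the synaptonemal complex is then built along the chromosomes. The pluripotency genes of primordial germ cells are shut down in the same period, and genes of the future oocyte such as Figla come on.

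The count table read here held 16344 complete genes, on chromosomes 1 to 7, 10, X and the start of 8, so that germ cell genes elsewhere in the genome were not analysed here. A kept E14.5 cell had a median of 134712 UMIs in this table (range 5349 to 457289) against 154635 UMIs at E13.5, and the deposited number of genes per cell, over the whole library, had medians of 8519 and 8766. A total of 6 germ identity genes were in the table, and their summed level was 2792 to 3074 CPM in the 4 libraries, against 127.7 CPM in the 137 cells of the Negative gate at E14.5. The 6 include Dppa3 and Prdm1, whose promoters drive the reporters used for the sort, so that the gate helps to set this contrast. Dppa3 alone held 975.5 to 1494 CPM in the 4 libraries. The 7 early gonadal somatic genes summed to 14.6 to 67.2 CPM against 2986 CPM in the Negative gate, a contrast that the limit on Anxa5, one of the 7, helps to set. All 7 had at least 1 UMI among the 275 cells. Anxa5 itself was at 0 in 148 of the 275 cells (53.8%). The 3 highest kept cells had 99.3, 97.9 and 92.1 CPM, and the lowest cells left out had 110.8 and 129.1 CPM.

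The marker genes chosen for this stage, Stra8, Sycp1, Figla and Ccnd1, were followed first. Stra8, the retinoic acid target required for meiotic entry (chr6:34920163-34939344 in GRCm38), measured 1669, 1133, 1265 and 1195 CPM in libraries 4, 5, 12 and 14, and 440.1 and 171.9 CPM in the 2 libraries of E13.5. The lowest library of E14.5 lay above the highest of E13.5, as was so for 1186 of 9997 tested genes (11.9%). The log2 fold change was 2.12 ± 1.11 (SE), with an adjusted p of 0.43 in edgeR's quasi-likelihood test, so that the difference did not pass when all 8 stages shared the estimate of the spread. With only the 2 stages in the fit it passed at 2.14, and it also passed without a filter on low counts and with cells thinned to one depth. The fit within the first title series is left out here. Library 3 was its only library of E13.5, and libraries 4 and 5 may not be independent. Across the 8 stages the mean level of Stra8 was highest at E14.5 (1315 ± 242 CPM, SD, n = 4), followed by 685.6 ± 345 CPM at E15.5 (n = 2), 306.0 ± 190 CPM at E13.5 and 154.8 ± 15.8 CPM at E16.5. The libraries of E13.5 and E15.5 nearly met (440.1 and 441.7 CPM), and no UMI of Stra8 was found at E11.5.

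Sycp1, which codes for the transverse filament of the synaptonemal complex (chr3:102818499-102936100), measured 1142, 950.1, 1097 and 1032 CPM at E14.5 and 311.3 and 273.5 CPM at E13.5. It rose by 1.81 ± 0.24 on the log2 scale (adjusted p = 0.000243, edgeR), a call that held in each of the 21 alternative fits. Its mean level went on to 1983 ± 107 CPM at E15.5 (n = 2), a further rise of 0.85 (adjusted p = 0.0186), and was highest at E16.5 with 2844 ± 246 CPM (n = 2).

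Figla, a transcription factor of the oocyte (chr6:86016171-86020996), measured 234.9, 95.5, 196.5 and 160.7 CPM at E14.5 and 24.5 and 3.79 CPM at E13.5. It rose by 3.66 ± 0.65 (adjusted p = 0.0113, edgeR). Without library 10 the adjusted p was 0.0656. The level of Figla did not peak at E14.5, since the means were 470.3 ± 103 CPM at E15.5 and 1468 ± 537 CPM at E18.5 (n = 2 each).

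Ccnd1, the gene of cyclin D1 (chr7:144929931-144939925), measured 169.9, 171.5, 223.3 and 225.6 CPM at E14.5 and 90.5 and 51.1 CPM at E13.5. The libraries of the stages did not overlap, as for 11.9% of tested genes in this direction, but the log2 fold change of 1.46 ± 0.83 did not pass (adjusted p = 0.451, edgeR). It passed in 2 of 21 alternatives, without a filter on low counts and with only the 2 stages fitted. Its mean was highest at E14.5 among the 8 stages (197.6 ± 31.03 CPM, n = 4). The 2 libraries of E15.5 held 12.53 and 185.5 CPM, so that one of them lay within the range of E14.5. An exon of LTO1 overlaps Ccnd1 on the other strand, and since no strand setting is given in the sources used here, reads of both genes cannot be told apart.

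**Figure D1:**
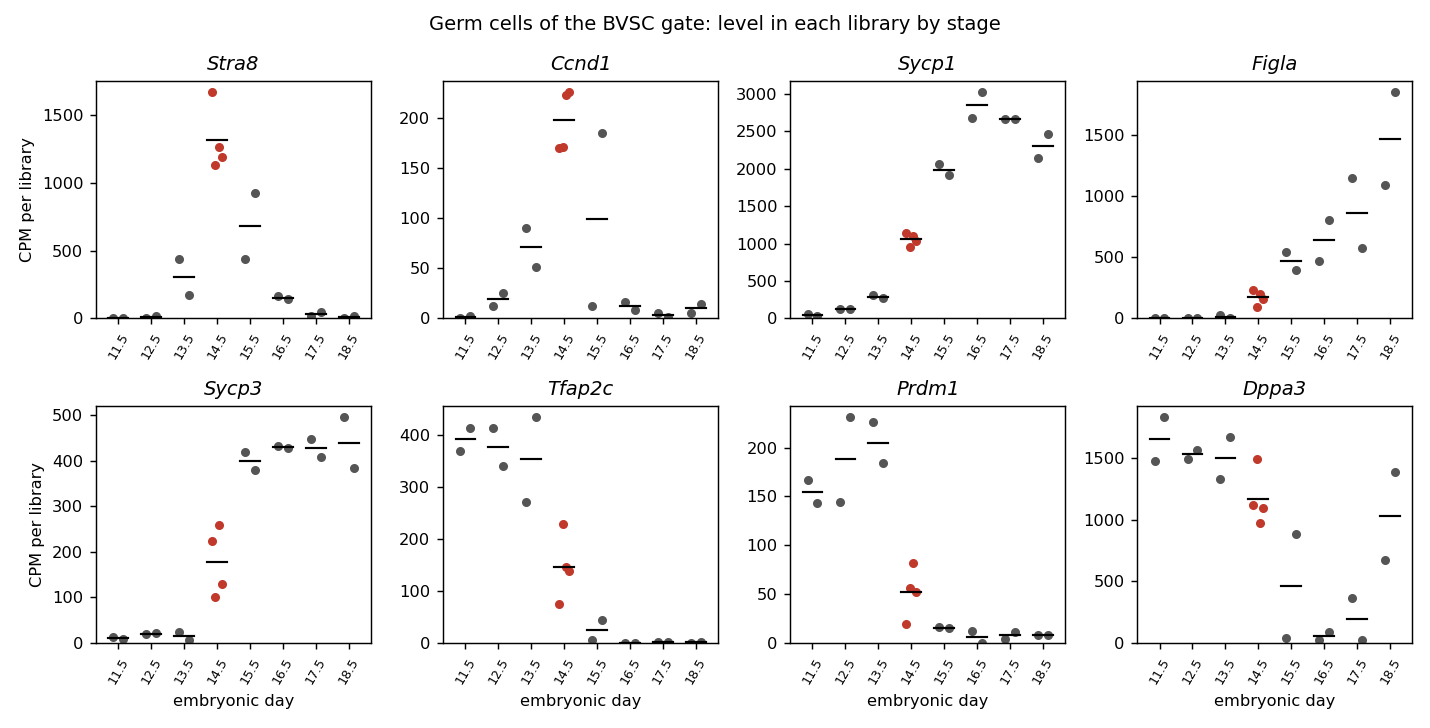
Level of 8 genes in CPM (vertical axis) in each library of germ cells from E11.5 to E18.5 (horizontal axis), with points for libraries, red points for E14.5 and a line for the mean. Stra8 and Ccnd1 have their highest mean at E14.5, Sycp1 at E16.5 and Figla at E18.5, while Tfap2c and Prdm1 lie lower at E14.5 than at E13.5 and Dppa3 overlaps.

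A total of 9997 genes passed the filter on low counts and were compared between E14.5 and E13.5. At an adjusted p under 0.05, 132 were higher (1.32%) and 16 lower (0.16%) at E14.5, or 1.48% in either direction, and 14.1% had an unadjusted p under 0.05. DESeq2 called 410 and 93. Over all genes tested the log2 fold change had a median of 0.03. The number of calls depended on single libraries: it was 20 higher and 0 lower without library 10, where edgeR gave 183 lower genes at an unadjusted p under 0.05. It was 81 and 1 without library 4, 87 and 5 without library 12, 110 and 34 without library 3, 174 and 52 without library 5, and 95 and 8 without library 14.

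Meiotic structure genes were among those called. Of the 7 synaptonemal complex and meiotic cohesin genes in the table, 4 rose, against 1.32% of all genes tested. All 7 had a positive fold change, with a median of 1.81 against 0.03 for all genes tested. Sycp3, of the axial element, measured 223.5, 101.2, 258.8 and 129.7 CPM at E14.5 against 24.8 and 7.65 CPM at E13.5, and rose by 3.48 ± 0.41 (adjusted p = 0.000104). Sycp2, its axial partner, measured 343.0, 102.3, 255.9 and 278.4 CPM against 61.5 and 8.84 CPM, and rose by 2.85 ± 0.61 (adjusted p = 0.0306), a call lost in 5 of 21 alternatives, among them those without library 4, 10, 12 or 14. Library 5 was the lowest of the 4 for both axial genes, though above both E13.5 libraries. Exons of Chpt1 overlap Sycp3 on the other strand, and their reads cannot be told apart. Syce1, of the central element, rose by 1.40 ± 0.24 (adjusted p = 0.00354), from 285.5 and 198.8 CPM to between 594.7 and 698.4 CPM, a call lost without library 10.

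The other 3 genes of the list did not pass. Rad21l, a meiotic kleisin of the cohesin ring, had a fold change of 4.33 ± 1.09 (adjusted p = 0.0503) at a level of 6.15 to 21.2 CPM. Hormad1, which marks the unsynapsed axis, had one of 0.89 ± 0.23 (adjusted p = 0.0513). Stag3, the meiotic cohesin subunit already at 352.0 and 198.3 CPM at E13.5, had one of 0.60 ± 0.29 (adjusted p = 0.362), and its libraries overlapped between the stages. DESeq2 called Rad21l and Hormad1 as well.

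Of 11 genes of meiotic recombination and telomere attachment, 6 rose, against 1.32% of all genes tested, and none fell, with a median of 1.42. Rnf212, a crossover factor, measured 82.5, 27.3, 50.9 and 56.6 CPM against 6.12 and 0.0789 CPM and rose by 4.21 ± 0.86 (adjusted p = 0.0284). Terb2, which ties telomeres to the nuclear envelope, rose by 2.33 ± 0.42 (adjusted p = 0.00422). Hfm1, a helicase of crossover formation, rose by 1.59 ± 0.38, M1ap by 1.58 ± 0.27, Tex11 by 1.51 ± 0.37 and Zcwpw1, a reader of histone marks at break sites, by 1.42 ± 0.29 (adjusted p = 0.0376, 0.00354, 0.0421 and 0.0128). The calls of Hfm1 and Tex11 were lost in 7 and 8 of 21 alternatives, among them the replicate block and the fits without library 3, 4, 10, 12 or 14. That of Rnf212 was lost in 3 (without library 12 or 14, and with only the 2 stages), those of Terb2 and Zcwpw1 in 2 each, both without library 10, and that of M1ap without library 3. Spo11, the enzyme that makes the meiotic breaks, did not pass (1.06 ± 0.38, adjusted p = 0.189), with 88.4, 42.8, 79.3 and 117.8 CPM at E14.5 and 57.7 and 20.9 CPM at E13.5. It rose between E14.5 and E15.5 by 2.50 (adjusted p = 0.000472), to 658.9 and 302.8 CPM.

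Among 10 tested genes of the retinoic acid response and meiotic initiation, 1 rose, against 1.32% of all genes tested. This was Gm4969, the gene of the STRA8 partner MEIOSIN. It measured 75.63, 29.14, 57.02 and 28.31 CPM at E14.5 and 9.94 and 1.89 CPM at E13.5, and rose by 3.06 ± 0.74 (adjusted p = 0.0375). This call was lost in 8 of 21 alternatives, among them those without library 4, 10 or 12, with libraries 4 and 5 merged, with pools merged by replicate name and in the first title series alone. Zfp541 had a fold change of 3.22 ± 1.17 (adjusted p = 0.245), from 10.4 and 0.631 CPM to between 19.2 and 68.7 CPM. Crabp2, a retinoic acid carrier, did not overlap between stages (101.7 to 182.7 CPM against 90.99 and 61.2 CPM), within the 11.9% of genes given above, and did not pass (0.93 ± 0.89, adjusted p = 0.688). Rxra, a retinoid receptor, Cyp26b1, which breaks down retinoic acid, Dhrs3 and Rbm46 did not pass either, with adjusted p values from 0.389 to 0.907.

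**Figure D2:**
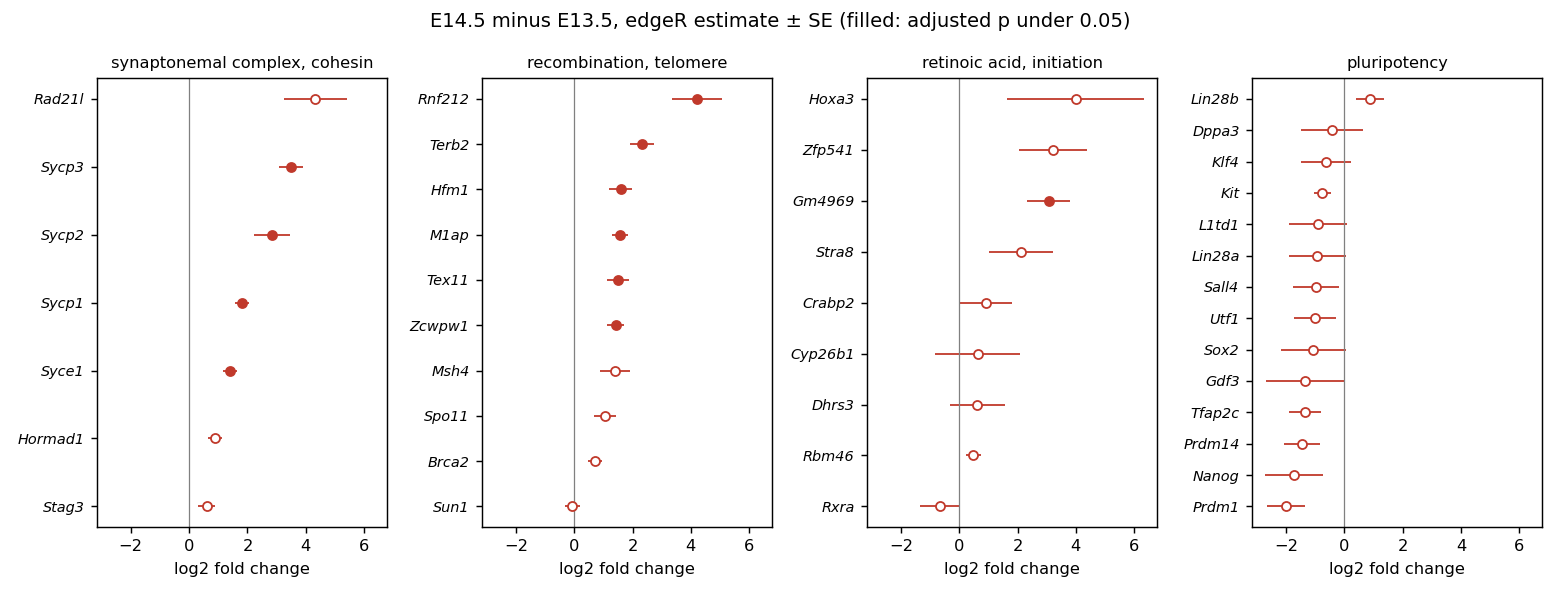
Log2 fold change of E14.5 minus E13.5 (horizontal axis) for tested genes of 4 lists, with points for the edgeR estimate, bars for its SE and filled points for genes with an adjusted p under 0.05. Filled points number 4, 6 and 1 in the first 3 lists and 0 in the pluripotency list, where 13 of 14 points lie below 0. Genes not reported here are not drawn.

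Pluripotency genes of primordial germ cells lay lower without passing the test. Of 14 tested, 13 had a negative fold change, with a median of -0.98, and edgeR called none. At an unadjusted p under 0.05, 4 were lower, as were 565 of all 9997 tested genes. DESeq2 called 1, Prdm1. Nanog measured 45.1, 136.8, 88.4 and 91.2 CPM at E14.5 and 193.3 and 368.0 CPM at E13.5 (-1.72 ± 0.98, adjusted p = 0.463). Tfap2c, a germ cell specification factor, measured 74.7, 228.6, 145.7 and 139.1 CPM against 271.0 and 433.9 CPM (-1.33 ± 0.55, adjusted p = 0.282). Prdm1, whose promoter drives one of the reporters, measured 19.6, 56.2, 81.9 and 52.3 CPM against 225.9 and 184.0 CPM (-2.01 ± 0.65, adjusted p = 0.149). With only the 2 stages fitted, and also without a filter on low counts, all 3 genes passed as lower. Tfap2c passed in 3 of 21 alternatives and Prdm1 in 5, with cells thinned for both. For all 3 the libraries of the stages did not overlap, as was so for 1240 of the 9997 tested genes in that direction (12.4%). Dppa3, whose promoter drives the other reporter, overlapped between the stages, with 975.5 to 1494 CPM at E14.5 and 1329 and 1671 CPM at E13.5 (-0.41 ± 1.06, adjusted p = 0.921). Lin28b was the member with a positive value (0.89 ± 0.48, adjusted p = 0.41).

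The cell cycle lists held few calls between E13.5 and E14.5, while most members had negative fold changes. Of 20 S phase genes 17 were negative (median -0.31) and of 28 G2 and M phase genes 23 (median -0.32). The list sums did not overlap between the stages, at 7762 to 8905 CPM against 9652 and 10300.2 CPM for S phase and 9521 to 11754 CPM against 12100 and 12787 CPM for G2 and M phase. Among the S phase genes 6 were lower at an unadjusted p under 0.05 (edgeR), as were 565 of all 9997 tested genes. Ccne2, the gene of cyclin E2, rose from 53.7 and 42.9 CPM to 228.5, 144.2, 204.5 and 184.8 CPM (1.94 ± 0.32, adjusted p = 0.00262), a call lost without library 10, and Mcm10, a factor of replication start, fell by 1.15 ± 0.29 (adjusted p = 0.0477), a call lost in 13 of 21 alternatives. Exons of Ints8 overlap Ccne2 on the other strand. Of the G2 and M phase genes none was called by edgeR or DESeq2, and 3 were lower at an unadjusted p under 0.05. Between E14.5 and E15.5, 10 genes of the S phase list and 12 of the G2 and M list fell, against 3.2% of all tested genes, among them Mcm2 (by 1.67) and Mcm6 (by 0.85). Of 9 genes of the BMP response, none was called or had an unadjusted p under 0.05 between E13.5 and E14.5, and DESeq2 called none. Id3, a BMP target, held 1005, 1079, 745.6 and 889.4 CPM at E14.5 and 998.7 and 1116 CPM at E13.5, and fell by 1.30 to E15.5 (adjusted p = 0.0116).

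Outside the lists, the genes with the largest changes were named by a rule: the 12 most changed in each direction among calls with a mean of at least 20 CPM in the higher stage. Among those that rose was Taf7l, a germ cell relative of a general transcription factor subunit, at 518.7, 292.8, 596.6 and 567.4 CPM against 58.3 and 10.97 CPM (3.87 ± 0.63, adjusted p = 0.0062). Lypd4 measured 184.5, 87.95, 159.2 and 170.9 CPM against 8.60 and 0 CPM (5.22 ± 1.05, adjusted p = 0.029). Pparg, a nuclear receptor, measured 42.1, 14.6, 53.1 and 36.8 CPM against 2.68 and 0.474 CPM (4.56 ± 0.82, adjusted p = 0.0045). Library 5 was the lowest of the E14.5 libraries for Taf7l, Lypd4 and Pparg. The calls of Taf7l and Pparg were lost without library 10. That of Pparg was also lost in the first title series alone, where library 3 was the only library of E13.5. The call of Lypd4 was lost in 5 of 21 alternatives, among them those without library 4, 12 or 14.

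The remaining genes of that set were Patl2, an RNA-binding protein gene of oocytes (4.89), Nrip3 (4.82), Tro (4.02), Uckl1 (3.87) and Cd27 (3.70), besides Rnf212, Figla and the neighbours Gm14692 and Gm1140 on the X chromosome. These last 2 gave the same value in library 4 (66.1 CPM) and library 5 (15.1 CPM), so that reads may be shared between copies and the values of each are uncertain. Gm14692 had 2 UMIs in all E13.5 cells and 1399 in the E14.5 cells, a ratio of 415 per UMI sequenced, with an exact 95% interval of 115 to 3430 that covers counting error only. Exons of Uckl1os and Zfp512b overlap Uckl1. The call of Tro was lost in 10 of 21 alternatives, among them those without library 3, 4, 10, 12 or 14. The calls of Patl2, Nrip3, Uckl1 and Cd27 were lost without library 10. Those of Patl2, Uckl1 and Cd27 were also lost in the first title series alone, and that of Cd27 without library 3.

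Genes that fell included Prmt1, the main arginine methyltransferase, with 46.7, 93.4, 94.2 and 64.9 CPM against 246.9 and 444.7 CPM (-2.30 ± 0.48, adjusted p = 0.019). Arpc3, a subunit of the actin-nucleating Arp2/3 complex, held 10.93, 40.93, 48.69 and 40.97 CPM against 165.8 and 155.1 CPM (-2.23 ± 0.43, adjusted p = 0.0079). Rbm3, a cold-induced RNA-binding protein gene, held 229.6, 423.4, 376.6 and 360.5 CPM against 656.9 and 834.0 CPM (-1.17 ± 0.25, adjusted p = 0.018), and an antisense gene, Rbm3os, overlaps its exons. The non-coding RNA Platr10 had the largest fall of the set (-3.58 ± 0.78), from 12.14 and 32.99 CPM to between 0.228 and 3.45 CPM. Cdc42ep5 (-2.01), Patj (-1.67), Zswim1 (-1.59), Socs2 (-1.24), Degs1 (-1.21), Nans (-1.20), Mcm10 and Rabggtb (-1.12) complete the set. All 12 falls lost their call without library 10.

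The sequence before the RefSeq start of genes that rose was read from the GRCm38.p6 table, which held a promoter for 100 of the 132 higher and 11 of the 16 lower genes. Motifs were searched on both strands in 300 bases, 250 before to 50 after the start, and were picked with the results known: CNCCTCAG (reported for STRA8), the E-box CACGTG and the E2F core GCGGGA, of which no one contains another. The 250 bases before the start are shown for Sycp1, Figla and Taf7l, chosen among the genes that rose because the bases lie outside annotated exons and hold a match. The windows of Sycp2, Syce1 and Zcwpw1, which also rose, held no match. The sequences are printed with motif matches in capitals, 5' to 3' on the strand of the gene.
Sycp1, chr3:102936101-102936350, minus strand: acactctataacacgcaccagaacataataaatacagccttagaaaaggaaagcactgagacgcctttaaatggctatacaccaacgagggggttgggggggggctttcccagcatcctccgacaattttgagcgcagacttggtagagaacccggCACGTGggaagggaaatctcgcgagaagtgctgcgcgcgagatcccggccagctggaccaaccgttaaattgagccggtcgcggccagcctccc
Figla, chr6:86016941-86017190, plus strand: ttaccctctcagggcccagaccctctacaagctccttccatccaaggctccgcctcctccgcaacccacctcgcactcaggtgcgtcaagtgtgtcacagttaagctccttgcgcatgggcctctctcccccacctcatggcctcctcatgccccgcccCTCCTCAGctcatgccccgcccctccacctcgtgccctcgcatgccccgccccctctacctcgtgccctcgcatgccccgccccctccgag
Taf7l, chrX:134476491-134476740, minus strand: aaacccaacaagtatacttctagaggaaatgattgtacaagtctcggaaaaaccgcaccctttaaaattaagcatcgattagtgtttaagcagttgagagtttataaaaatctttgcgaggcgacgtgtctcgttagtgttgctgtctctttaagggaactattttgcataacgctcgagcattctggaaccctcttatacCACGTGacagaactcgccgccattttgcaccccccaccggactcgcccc
Capitals mark the E-box of Sycp1, 94 bases before its start, a match to CNCCTCAG in Figla, 91 bases before, and the E-box of Taf7l, 49 bases before. In the 50 bases after the start, Figla held a second match to CNCCTCAG, and Sycp1 held 1 match to CNCCTCAG and 1 to the E2F core. The motif CNCCTCAG was in 19% of the 100 higher genes, 0.0% of the 11 lower genes and 9.5% of the 7602 tested genes with a promoter. The E-box was in 12%, 36.4% and 9.4%, and the E2F core in 34%, 27.3% and 31%. Of the 7 synaptonemal and cohesin genes, 57.1% had an E-box, 57.1% the E2F core and 14.3% the motif CNCCTCAG. The window of Stra8 itself held none of the 3. The RefSeq starts of Stra8 and Figla lie inside the genes as annotated by GENCODE. The printed bases of Figla are thus within the annotated gene, though outside its exons.

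Within E14.5 the cells were spread widely in meiotic gene expression. The summed CPM of the 7 synaptonemal and cohesin genes (Sycp1, Sycp2, Sycp3, Syce1, Hormad1, Stag3 and Rad21l) had a median of 3112 over the 275 cells, with a 10th percentile of 1442 and a 90th of 7182. At E13.5 the median was 1023 and at E15.5 it was 7007. The medians of the E14.5 libraries were 3555, 2352, 3570 and 3154 in libraries 4, 5, 12 and 14, all between the libraries of E13.5 (1088 and 995) and those of E15.5 (6716 and 7307). The 90th percentile was 3.95, 5.89, 4.91 and 4.21 times the 10th in libraries 4, 5, 12 and 14, against 3.11 and 3.22 times in the libraries of E13.5 and 1.76 and 4.04 times in those of E15.5. The coefficient of variation was 54.8%, 82.8%, 56.8% and 58.7%, against 60.2% and 44.3% in libraries 3 and 10 of E13.5. Library 3 thus lay above libraries 4, 12 and 14, and by this measure E14.5 and E13.5 overlapped in spread. Both libraries of E15.5 lay below all those of E14.5.

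Cells of E14.5 reached into the ranges of both neighbouring stages. A total of 71 of the 275 (25.8%) were at or below the 90th percentile of E13.5 cells, 1864 CPM, and 94 (34.2%) were at or above the 10th percentile of E15.5 cells, 4300 CPM. By library the first share was 25.8% in library 4, 41.7% in library 5, 14% in library 12 and 27.5% in library 14. The lowest cell had 315.3 CPM and the highest 14117 CPM.

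**Figure D3:**
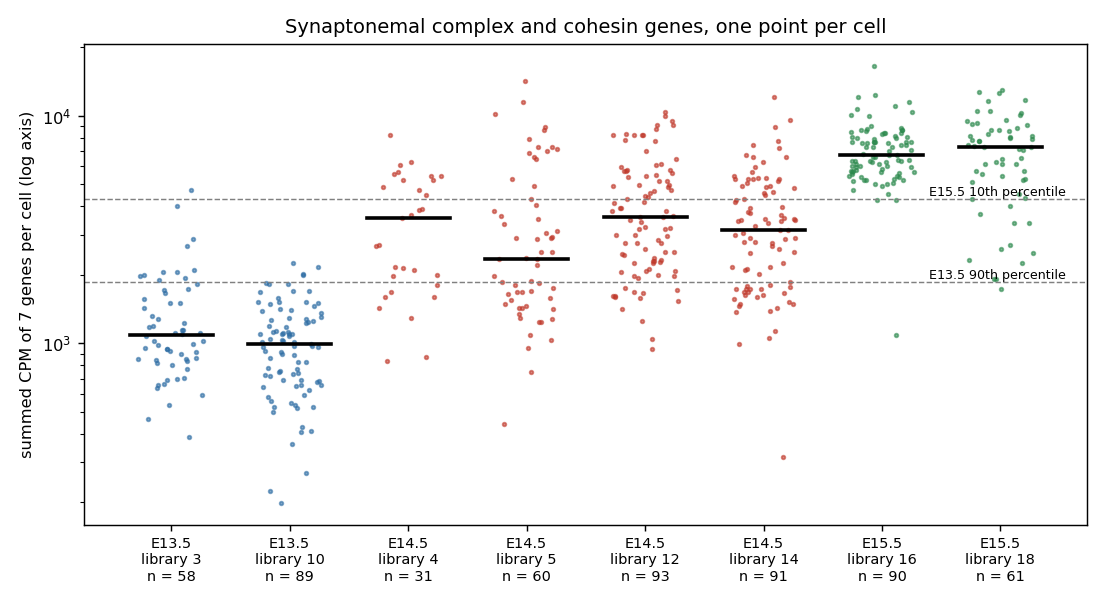
Summed CPM of 7 synaptonemal complex and cohesin genes (vertical log axis) in single cells of each library of E13.5, E14.5 and E15.5, with a bar at the median of each library and dashed lines at 1864 and 4300 CPM. The E14.5 libraries have medians of 2352 to 3570 CPM, and 71 of their 275 cells lie at or below the lower line.

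Nearly every E14.5 cell held transcripts of Stra8, and among the E14.5 libraries the share differed more for Figla and Ccnd1. The share of cells with Stra8 at or above 50 CPM was 100% in libraries 4, 12 and 14 and 98.3% in library 5, against 75.9% and 29.2% at E13.5. Sycp1 reached this level in 100% of the cells of all 4 libraries, against 77.6% and 78.7%. The share for Ccnd1 was 64.5%, 66.7%, 78.5% and 76.9%, against 48.3% and 27%. The share for Figla was 48.4%, 36.7%, 58.1% and 48.4%, against 17.2% and 3.4%. All 4 genes separated the libraries of the stages by share, where 11.9% of tested genes did so by level in this direction. The 4 had been chosen as markers of this stage with earlier results of these data known, so that their separation is no independent support. Each exact permutation test over libraries gave a two-sided p of 0.1333. This is the smallest that 4 against 2 libraries can give, so that the test could not pass 0.05 and decides nothing. In the Negative gate, which should lack germ cells, the shares were 34.3% for Stra8, 27.7% for Ccnd1, 16.8% for Sycp1 and 0.7% for Figla in 137 cells of E14.5 (median 108650 UMIs), and 18.2%, 45.5%, 9.1% and 0.0% in 33 cells of E13.5 (median 64269 UMIs). At E13.5 the share for Ccnd1 in germ cells, 48.3% and 27%, thus lay around that of the Negative gate, while at E14.5 all 4 libraries lay above the Negative gate for each of the 4 genes.

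The level of Stra8 varied between cells even where nearly all had it. Over the 275 cells the median was 1398 CPM, the 10th percentile 248 CPM and the 90th 2836 CPM, and 1 cell had none. At E13.5 the median was 43.9 CPM, the 90th percentile 924 CPM and the coefficient of variation 146%, against 71.6% at E14.5. Figla had a median of 46.8 CPM at E14.5, was at 0 in 29 cells (10.5%) and reached 1604 CPM. Ccnd1 had a median of 160.4 CPM and was at 0 in 21 cells (7.6%).

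The cells of each library were ranked by the summed synaptonemal CPM and split into 3 groups of nearly equal size (low, middle and high), and the mean level of other genes was compared between them, as a description with no test. The list itself averaged 1592, 3148 and 6413 CPM from the low to the high group over the 4 libraries. The high group had fewer UMIs than the low group in libraries 5, 12 and 14 (median 61162 against 142878 in library 5, 84631 against 134992 in library 12 and 97340 against 136859 in library 14) and more in library 4 (179009 against 131000). For this reason the values were also taken from cells thinned to 30000 UMIs, which left 255 cells of E14.5, a depth set after the data had been seen.

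Stra8 stood higher in each successive group, at 1019, 1821 and 2466 CPM in library 4, 656.4, 1037 and 3478 CPM in library 5, 972.9, 1493 and 2222 CPM in library 12, and 837.0, 1626 and 1781 CPM in library 14. Figla was concentrated in the high group of every library, with means over the libraries of 32.69, 93.04 and 426.9 CPM. Ccne2 (57.01, 145.6 and 461.0 CPM), Dmrtc2, a meiotic gene of the DMRT family (57.6, 233.2 and 741.8 CPM), and Lypd4 (19.5, 51.4 and 426.4 CPM) followed the same order. Thinned cells gave 836.1, 1539 and 2350 CPM for Stra8 and 26.01, 84.98 and 440.0 CPM for Figla.

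Ccnd1 did not follow that order. It was highest in the middle group in libraries 5 (123.5, 201.1 and 171.9 CPM), 12 (137.5, 362.9 and 157.4 CPM) and 14 (129.0, 342.7 and 210.0 CPM), and in library 4 the middle and the high group lay close (84.2, 220.9 and 239.0 CPM). Id1, a BMP target, was highest in the middle group of all 4 libraries, with means of 476.5, 629.9 and 412.7 CPM. In thinned cells Ccnd1 was highest in the middle group in libraries 12 and 14 only, while the high group was above the middle in library 5 (196.3 against 181.5 CPM) and library 4 (226.7 against 223.3 CPM). The thinned means of Ccnd1 were 128.6, 248.6 and 203.7 CPM and those of Id1 511.5, 633.6 and 446.6 CPM.

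Genes of primordial germ cells ran the other way. The 15 pluripotency genes summed to 4580, 3102 and 1233 CPM in the low, middle and high group, and the high group was below the low group in all 4 libraries. Nanog had 99.0, 4.93 and 3.34 CPM in library 4, 178.6, 101.3 and 13.7 CPM in library 5, 166.9, 33.52 and 10.98 CPM in library 12, and 172.9, 50.04 and 11.4 CPM in library 14. Tfap2c averaged 232.3, 125.6 and 26.1 CPM, Dppa3 1739, 1433 and 614.3 CPM, and Phlda2, an imprinted gene, 1429, 1053 and 265.5 CPM. In thinned cells Nanog averaged 155.1, 47.2 and 12.6 CPM. Prdm1 averaged 76.99, 48.2 and 15.7 CPM, but its middle group exceeded the low group in libraries 4 and 5.

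Cell cycle genes differed in pattern among themselves. Mcm6, a subunit of the replicative helicase, stood at 675.1 and 672.7 CPM in the low and middle groups and 387.5 CPM in the high group, and Mcm10 at 115.9, 75.3 and 39.2 CPM. Mki67, a proliferation marker, averaged 405.1, 371.7 and 444.1 CPM, with the high group above the low group in 2 of 4 libraries. The G2 and M phase list summed to 11951, 10347 and 8277 CPM. The immediate early genes, induced by tissue dissociation, summed to 350.1 ± 202, 161.3 ± 90.7 and 169.5 ± 152 CPM (SD over 4 libraries) and erythroid genes to 54.9 and 41.7 CPM in the middle and high groups, with less in the low group. Pregranulosa genes summed to 157.8, 58.5 and 65.5 CPM, with 440.3 CPM in the low group of library 14, and early gonadal somatic genes to 62.1, 25.1 and 33.5 CPM. The part of these 4 lists in the differences between the groups was not tested.

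**Figure D4:**
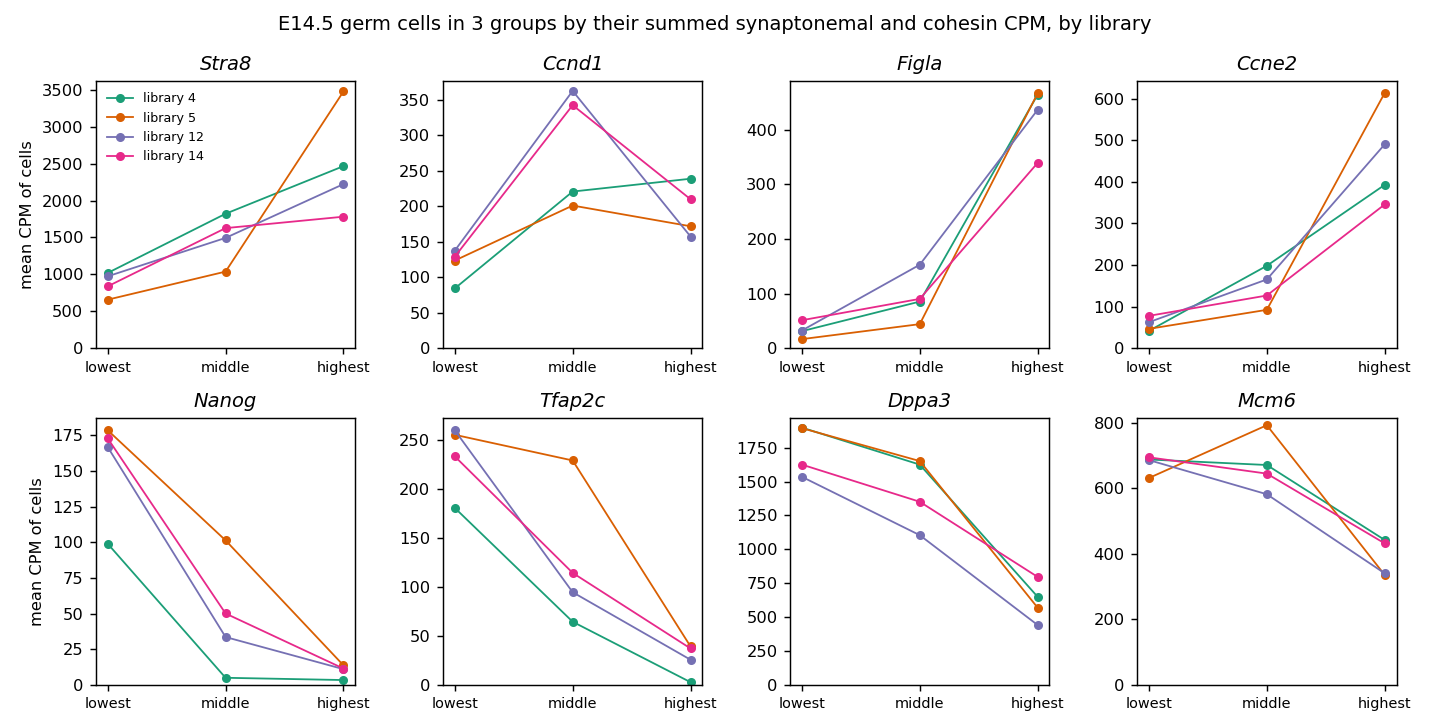
Mean CPM (vertical axis) of 8 genes in the low, middle and high group of E14.5 cells by summed synaptonemal and cohesin CPM (horizontal axis), with a line for each of the 4 libraries. Stra8, Figla and Ccne2 stand highest in the high group, Nanog, Tfap2c and Dppa3 in the low group, and Ccnd1 in the middle group of libraries 5, 12 and 14, of which library 5 changes order in thinned cells.

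Correlations across cells were taken within each library on thinned cells and averaged. The points share a library and its preparation, and the rank correlation of Stra8 and Sycp1 with the original depth was -0.38 and -0.34. Stra8 and Sycp1 had a Spearman rho of 0.64 over the 255 cells of the 4 libraries (0.61 to 0.68), against 0.32 in the 140 thinned cells of E13.5 (0.22 and 0.42). Sycp1 and Tfap2c had -0.55 (-0.66 to -0.47) against -0.10 at E13.5, and Sycp1 and Figla 0.54 (0.38 to 0.66) against 0.12. Sycp1 and Mki67 had -0.04 (-0.11 to 0.06). Before thinning, Figla was at 0 in 109 of the 147 cells of E13.5 (74.1%). Sycp1 had a mean of 268.6 CPM in those cells, against 1320 CPM at E14.5. Ties at 0 and low counts limit a rank correlation, so the values of the stages are not on one footing. The difference between the stages was not tested.

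Among the 4649 genes with a mean of at least 20 CPM, those most like Sycp1 by this measure were Ndufa1 (0.73), Tex101 (0.71), Taf7l (0.68), Syce1 (0.66) and Stra8 (0.64). Those least like it were Cox7b (-0.69), Eno1 (-0.68), Txn1 (-0.68) and Utf1 (-0.65). Ndufa1 and Cox7b code for subunits of respiratory chain complexes, and both are on the X chromosome in the mouse. For Stra8 the most alike were Sycp1, Ndufa1 (0.57), Tex101 (0.55) and Syce1 (0.54), and the least alike Elovl6 (-0.57), Rest (-0.55) and L1td1 (-0.54). By spread beyond the trend with the mean level, Tex101, Taf7l, Lypd4, Dmrtc2, Phlda2, Stra8 and Sycp2 were among the 12 most variable genes. The first 2 of the 12, Gm10800 and Gm10801, varied in spread between libraries (0.17 to 1.68 and 0.02 to 1.35 in log10 units above the trend).

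**Figure D5:**
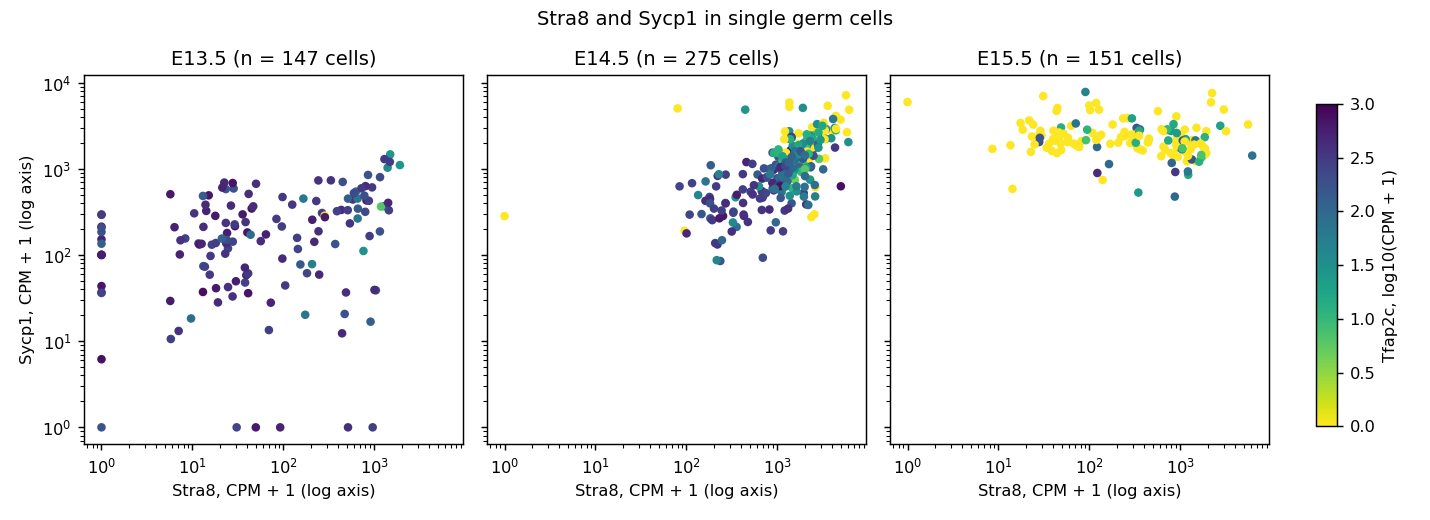
Stra8 (horizontal log axis, CPM plus 1) against Sycp1 (vertical log axis, CPM plus 1) in single germ cells of E13.5, E14.5 and E15.5, coloured by Tfap2c. At E14.5 nearly all of the 275 cells hold both transcripts and cells with less Tfap2c lie towards the upper right, while Stra8 is at 0 in 15 of the 147 cells of E13.5.

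The cell names carry a letter (P, C or D) whose meaning the labels do not give, and the letters are used here as names. The synaptonemal sum averaged 5184 CPM in C, 2991 CPM in D and 4181 CPM in P cells of library 12, and 3622, 3342 and 3752 CPM in library 14. It was 4421 CPM in C and 2693 CPM in P cells of library 5 and 3510 CPM in the D cells of library 4. The median depth of C and P cells in library 5 was 76659 and 163018 UMIs. The order of the letters was thus not the same in libraries 12 and 14. Of 7392 genes tested with edgeR over the 9 pools of library and letter, 0 (0.0%) passed in each of the 3 comparisons, with 253 (3.42%), 133 (1.8%) and 134 (1.81%) at an unadjusted p under 0.05 for C against P, D against P and D against C, while DESeq2 called 2, 0 and 1. This fit had no term for the library, although letters share libraries, and with the library as a block D against C gave 1 lower gene. Stra8 differed by 0.52 ± 0.27 between C and P (adjusted p = 0.999), and Figla by 0.90 ± 0.36 (adjusted p = 0.999).

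The step from E14.5 to E15.5 used the same E14.5 libraries and is given beside the first. Of the 9997 genes, 400 were higher (4.0%) and 320 lower (3.2%) at E15.5, or 7.2% in either direction, with 24.6% at an unadjusted p under 0.05. The 2 libraries of E15.5 stood apart from each other, with Dppa3 at 43.7 CPM in library 16 and 884.5 CPM in library 18, and the counts were 24 and 6 without library 16 and 501 and 749 without library 18. They were 236 and 163 without library 5 and 250 and 229 without library 12. Of the 11 recombination genes, 6 rose, among them Hfm1 (by 1.53), Msh4, a crossover factor (1.89), and Tex11 (1.13). Germ cells of E15.5 no longer showed Ldoc1 and Pon3, which had 11.39 to 36.9 and 11.82 to 24.24 CPM in the 4 libraries of E14.5 and no UMI at E15.5, at least 174-fold and 130-fold lower, counting 3 UMIs over the E15.5 group. Tet1, which oxidises methylated cytosine, fell by 3.06 ± 0.72 (adjusted p = 0.0235), from 292.9, 433.4, 285.8 and 279.5 CPM to 8.28 and 73.4 CPM. Hk2, a hexokinase gene (-3.14), and Hmgn5 (-3.71) fell as well. The call of Tet1 was lost in 5 of 19 alternatives, among them that without library 16, that of Hmgn5 in 6, among them those without library 5 or 12, and that of Hk2 without library 16. Tfap2c fell by 2.59 (adjusted p = 0.0277) and Kit, the receptor of germ cell survival, by 1.89 (adjusted p = 0.00206). Gria2 (9.23), Slc26a7 (7.45) and Gc (4.47), the gene of vitamin D binding protein, were among those that rose from low levels. Dnmt3l and Spocd1 were called higher at E15.5, but all of their E15.5 UMIs came from library 18, and without it both fold changes turned negative (-3.19 and -2.94).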

How the data were processed

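UMI counts per gene and cell were deposited by the authors. The submitters' processing notes name CASAVA 1.8, UMI-tools, STAR, featureCounts, Subread and the build mm10, and the sources used here do not give their roles, the strand setting or the filters. Stage, gate, letter and replicate were read from the cell names. CPM were computed over the 16344 complete genes, a median of 51.4% of the deposited UMIs of the E14.5 cells, so a CPM here is not one of the whole transcriptome. Counts were summed per library and tested with edgeR 4.0.16 (TMM, filterByExpr, quasi-likelihood, all 8 stages and 18 pools in one fit, Benjamini-Hochberg adjusted p under 0.05), with DESeq2 1.42.0 as an alternative. Pools held 4390033 to 14048285 UMIs at E14.5. SE is the fold change divided by the root of F. No doublet caller was run. Intervals cover counting error only. The members and gene lists were chosen with earlier results of these data known, and the genes followed in single cells, the thinning depth and the motifs after values had been seen. Genes outside the lists were named as the 12 most changed calls in each direction with at least 20 CPM in the higher stage. Some list members are counted but not reported here by name. Coordinates follow GENCODE M21, promoters RefSeq GRCm38.p6.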

Additional observations from a re-analysis of the deposited data

Results flagged for a closer look

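Of 48 values compared over the 4 libraries of E14.5, 4 had 1 library far from the other 3, by a measure that chance passes in about 1 in 20 groups, and in all 4 it was library 5. Tex11 was at 69.27 CPM there and at 195.1, 209.6 and 213.9 CPM in the others. Socs2 was at 309.0 CPM against 182.1, 184.7 and 190.2 CPM. The share of cells with Stra8 at or above 50 CPM was 98.3% against 100% in the other 3. Because these 3 are tied at 100%, any lower share would have been flagged, and the rate of 1 in 20 does not hold there. The coefficient of variation of the synaptonemal sum was 82.8% against 54.8%, 56.8% and 58.7%.

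The 45 cells of the BV gate at E14.5, sorted apart from the BVSC cells and used in no comparison above, held Sycp1 at a mean of 1512 CPM and Figla at 272.7 CPM, against 23.3 and 2.95 CPM in the 137 cells of the Negative gate. The means over the 275 kept BVSC cells were 1320 and 182.3 CPM. Shares and spreads given above for E14.5 thus describe cells of the BVSC gate only.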

How the results depend on the processing

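Between E13.5 and E14.5 the numbers higher and lower (132 and 16) were 410 and 93 with DESeq2, 331 and 140 without the filter on low counts, 263 and 123 with only the 2 stages fitted, 245 and 69 with cells thinned, and 258 and 132 in the second title series alone. Leaving out 1 library gave 20 to 174 higher and 0 to 52 lower. The number lower was 26 in the first title series and 1 with pools merged by replicate name. With the replicate name as a block it was 112 and 7, and 344 and 314 from E14.5 to E15.5. Nothing in the labels says that these names pair the samples. From E14.5 to E15.5 the numbers (400 and 320) were 711 and 605 with DESeq2, 627 and 614 without the filter, 620 and 600 thinned, 74 and 71 merged, 229 and 136 in the second title series, and 266 higher with the title series as a covariate. Leaving out 1 library gave 24 to 501 higher and 6 to 749 lower. Between letters the 0 calls became 2 higher for C against P with DESeq2, and for D against C 1 lower with the library as replicate block, 1 with DESeq2 and 0 to 2 without 1 library. The difference in the share of cells with Sycp1 (21.9 points) was 10.5 at 20 CPM, 31.1 at 100 CPM, 31.1 with the deposited total as denominator and 23.6 without the Anxa5 limit, and that for Figla (37.6) was 55.6 at 20 CPM. That for Stra8 (47) was 24.6 at 20 CPM, 23.7 without library 10 and 70.4 without library 3, and that for Ccnd1 (34) was 23.4 without library 10 and 44.7 without library 3. The ratio of the 90th to the 10th percentile of the synaptonemal sum (4.74) was 6.05 on mean log2 values. Single genes stayed called or not called, with the same direction where called, in 720 of 882 values from E13.5 to E14.5. The same held in 454 of 530 from E14.5 to E15.5. A change of sign in a gene called in neither fit was not counted, as for Dppa3, which ranged from -0.96 to 0.14 from E13.5 to E14.5. From E14.5 to E15.5 Dnmt3l (-3.19) and Spocd1 (-2.94) reversed without library 18, Dnmt3l ranging from there to 10.95 without library 14. The causes were not tested. The fits by title series, with libraries 4 and 5 merged and the alternatives for the letters were added after seeing the data. For E13.5 the first title series held library 3 alone and the second held library 10 alone. The same was so in the fits without library 10 and without library 3.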
